A study of Mus musculus with 9 samples.

Results

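The digestive enzymes made by the acinar cells of the pancreas were followed here in cells sorted from mouse small intestine, through the transcripts of 10 genes: Ctrb1, Cela2a, Cela3b, Cpa1, Cpb1, Prss2, Pnlip, Clps, Try4 and Try5. The genes were chosen by symbol, and all 10 were found among the 35013 symbols of each of the 2 deposited expression tables. Acinar cells fill their secretory granules with inactive protease precursors, lipases and their cofactors, which pass through the pancreatic duct into the duodenum. Their transcripts are among the most abundant in the pancreas, so they serve as a sensitive trace of pancreatic RNA in tissue dissected beside it. In these data the 10 genes were detected, 9 of them at 0 to 1161 normalized counts, and they did not move as 1 block. Clps, which encodes colipase, rose in CD24+Tomato+ cells and was high in all 3 of their libraries. The other 9 genes were led by CD24+Tomato+ replicate 3, which held 76.6% to 86.9% of the normalized counts of each gene summed over the CD24+Tomato+ libraries.

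All libraries came from NFKO mice (Neurog3Cre-FoxO1 f/f; Rosa26tdtomato) aged 4 to 6 weeks, in which Cre expressed from Neurog3, a transcription factor of endocrine progenitors, removes FoxO1 and switches on the red reporter Tomato. Epithelial cells of 3 populations, with 3 biological replicates each, were sorted on Tomato and on the surface protein CD24 and sequenced as bulk mRNA: CD24negTomato+, CD24+Tomato+ and Tomatoneg cells. The Tomatoneg cells carried the same alleles and were the comparison group of both tables, so there was no wild-type control. Neurog3 is also expressed by endocrine progenitors of the pancreas, so the driver is not restricted to the gut. The methods describe freeing the gut of adhering pancreas by microdissection ahead of cell isolation. The question addressed is how much acinar transcript each sorted library held, and whether it differed between the sorted populations.

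Depth was estimated at 1.92e+07 to 3.92e+07 reads per library from the value of 1 read, the most common low value of a library. A level equal to 3 reads, 2.10 to 4.29 normalized counts, was taken as the floor of detection, which covers counting error only. The 9 libraries held 13025 to 18530 genes above 0, with the fewest in Tomatoneg replicate 1. The sorted populations matched their labels for Cd24a, with 994 to 2054 normalized counts in CD24negTomato+ and 25857 to 30949 in CD24+Tomato+ libraries, against 2944 to 5914 in Tomatoneg libraries. Foxo1 had 274 to 467 in CD24negTomato+ and from 193 to 319 in CD24+Tomato+ libraries, against 424 to 748 in Tomatoneg libraries (limma adjusted P = 0.427 and 0.0579 without, and 0.207 and 0.0219 with, the replicate number as a block). These gene-level values do not separate the floxed part of Foxo1 from the rest. Epcam, the epithelial adhesion molecule used in the sort, had 20915 to 37673 normalized counts, and Ptprc, which encodes the leukocyte antigen CD45, had 37.9 to 222. Neurog3 was highest in CD24+Tomato+ libraries (1319 to 1364), followed by Tomatoneg (80.2 to 182) and CD24negTomato+ libraries (14.6 to 41.2).

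The upstream sequences of the enzyme genes are shown because the genes share a known regulator. PTF1, a complex of Ptf1a, an E protein and Rbpjl, drives acinar secretory genes by binding an E box and a TTTCCC box lying near each other. RefSeq promoters (GRCm38.p6) were at hand for 8 of the 10 genes, Clps and Try5 being without an entry. The 250 bases before each start were searched on both strands for CACCTG, an E box of the kind PTF1 binds, for TTTCCC and for TATAAA. The first was found in 5 of the 8 genes (Prss2, Try4, Cela2a, Cela3b and Cpb1) and in 17.2% of all 32851 promoters. The second was found in 4 of the 8 (Prss2, Ctrb1, Cela2a and Cpa1) and in 21.9% of all promoters. Both together were found in Prss2 and Cela2a and in 3.61% of all promoters. The search set no limit on the distance between the boxes, so this count does not require them to lie near each other. In Prss2 and Cela2a the boxes are separated by many bases, as the sequences below show. Whether such pairs have the spacing that PTF1 binds was not tested. TATAAA was in 3 of the 8 (Prss2, Try4 and Pnlip) and in 12.4% of all promoters. A match is a description of these letters and not a binding site. Below are the 2 genes with both boxes, Ctrb1 as the most abundant protease of the set per length in CD24+Tomato+ libraries, and Cela3b, with 2 copies of CACCTG. They are written 5′ to 3′ on the strand of the gene, with the matches in capitals (matches on the other strand appear as reverse complements). No 2 matches overlap in these windows.
Prss2, chr6:41521526-41521775, plus strand: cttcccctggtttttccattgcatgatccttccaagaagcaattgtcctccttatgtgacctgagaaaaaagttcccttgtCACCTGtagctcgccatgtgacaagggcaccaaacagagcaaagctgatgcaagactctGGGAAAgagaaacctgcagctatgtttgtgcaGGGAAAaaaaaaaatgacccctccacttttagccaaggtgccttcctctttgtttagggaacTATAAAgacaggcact
Cela2a, chr4:141826006-141826255, minus strand: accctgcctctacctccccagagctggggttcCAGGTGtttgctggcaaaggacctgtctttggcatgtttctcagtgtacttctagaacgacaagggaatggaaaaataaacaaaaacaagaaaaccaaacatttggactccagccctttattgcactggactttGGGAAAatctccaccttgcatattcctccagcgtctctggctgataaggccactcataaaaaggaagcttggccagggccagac
Ctrb1, chr8:111691011-111691260, minus strand: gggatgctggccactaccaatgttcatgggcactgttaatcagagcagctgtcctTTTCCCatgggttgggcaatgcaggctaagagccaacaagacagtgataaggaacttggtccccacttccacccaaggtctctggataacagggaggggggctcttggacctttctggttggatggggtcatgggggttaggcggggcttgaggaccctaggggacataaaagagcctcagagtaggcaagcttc
Cela3b, chr4:137430521-137430770, minus strand: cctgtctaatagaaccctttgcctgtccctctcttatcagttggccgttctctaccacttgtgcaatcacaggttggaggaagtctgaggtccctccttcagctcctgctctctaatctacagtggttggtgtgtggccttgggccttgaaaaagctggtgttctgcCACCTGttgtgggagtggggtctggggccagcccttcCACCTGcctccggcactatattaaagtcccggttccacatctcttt
Ptf1a itself was listed at 0 in all 9 libraries, and Rbpjl was at 0 in all but CD24+Tomato+ replicate 1, where it was under the floor of 3 reads.

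The serine proteases were examined first. Prss2 encodes an anionic trypsinogen and lies on chromosome 6 (GRCm38, 41521787 to 41525079, plus strand). It had 40.3, 32.3 and 401 normalized counts in CD24+Tomato+ replicates 1, 2 and 3, against 0, 36.7 and 15.6 in Tomatoneg replicates of that table. In the other table it had 2.88, 0 and 33.9 in CD24negTomato+ and 0, 35.9 and 14.9 in Tomatoneg replicates. Prss2 was thus high in 1 library only, and both Tomato+ groups overlapped the Tomatoneg group. The log2 fold change was 3.26 (SE 1.57, limma adjusted P = 0.227) in CD24+Tomato+ cells and -0.70 (SE 1.88, adjusted P = 0.874) in CD24negTomato+ cells.

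Try4 and Try5 encode trypsinogens of the same cluster on chromosome 6 (41302269 to 41305532, plus strand, and 41311233 to 41316841, minus strand). Try4 had 62.1, 38.7 and 429 normalized counts in CD24+Tomato+ and 0, 17.8 and 4.45 in Tomatoneg replicates 1, 2 and 3, and the groups did not overlap. Try5 had 27.7, 44.3 and 478 against 0, 11.1 and 2.23, again without overlap. Replicate 3 was the highest library for both genes by a wide margin. The log2 fold changes were 4.45 (SE 1.36) and 4.65 (SE 1.39), the adjusted P values from limma were 0.0752 and 0.0712, and with the replicate number as a block they were 0.0498 and 0.0423. In CD24negTomato+ cells Try4 had 4.78, 6.04 and 51.1 normalized counts, against 0, 17.3 and 4.23 in Tomatoneg libraries. Try5 had 1.92, 0 and 26.6 against 0, 10.9 and 2.12, so that replicate 3 led in this population too and the groups overlapped. Try5 was under the minimum mean of 10 there and was not tested, and Try4 had a log2 fold change of 1.49 (SE 1.51, limma adjusted P = 0.645). The trypsinogen genes resemble each other closely. Of the 31-base words in their annotated transcripts, 82.7% for Try4, 60.9% for Try5 and 22.5% for Prss2 also occur in another gene, and their reads can be divided between them by the counting, so each of these levels is uncertain by itself.

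Ctrb1 encodes chymotrypsinogen B1 (chromosome 8, 111686519 to 111691010, minus strand) and shares no such word with another gene. It had 157, 105 and 1161 normalized counts in CD24+Tomato+ libraries against 0, 41.1 and 29.0 in Tomatoneg libraries. All CD24+Tomato+ values lay above all Tomatoneg values, with a log2 fold change of 4.64 (SE 1.58). The limma adjusted P was 0.102, and 0.0332 with the replicate block. In CD24negTomato+ libraries Ctrb1 had 43.9, 6.03 and 135 normalized counts, against 0, 40.0 and 27.5, and the groups overlapped (log2 fold change 1.73, SE 1.69, limma adjusted P = 0.631).

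The elastases were examined next, and Cela2a had the lowest log2 fold change of the enzyme genes in CD24+Tomato+ cells. Cela2a (chromosome 4, 141814962 to 141826160, minus strand) had 83.3, 81.4 and 583 normalized counts in CD24+Tomato+ and 53.4, 50.8 and 13.1 in Tomatoneg libraries. These groups did not overlap (log2 fold change 2.22, SE 0.96, limma adjusted P = 0.182). It was the only one of the 9 genes above 0 in Tomatoneg replicate 1. In CD24negTomato+ libraries it had 19.5, 2.07 and 66.5, against 50.3, 50.4 and 12.7. The annotated gene overlaps Casp9 and Ctrc, and 16.6% of its 31-base words occur in another gene, almost all of them in Ctrc. Cela3b (chromosome 4, 137420999 to 137430540, minus strand) had 45.1, 26.0 and 233 in CD24+Tomato+ and 0, 15.6 and 21.2 in Tomatoneg libraries, also without overlap (log2 fold change 3.21, SE 1.42, limma adjusted P = 0.192). It had 3.82, 0.752 and 14.6 in CD24negTomato+ libraries, against 0, 15.2 and 20.1, and was not tested there. Of its 31-base words, 26.1% occur in another gene, and its closest relative, Cela3a, was listed at 0 in all 9 libraries.

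The carboxypeptidases Cpa1 and Cpb1 trim amino acids from the ends of peptides. Cpa1 (chromosome 6, 30639218 to 30645363, plus strand) had 43.0, 39.3 and 286 normalized counts in CD24+Tomato+ and 0, 9.84 and 40.8 in Tomatoneg libraries. Cpb1 (chromosome 3, 20248264 to 20275733, minus strand) had 63.3, 34.4 and 366 against 0, 22.2 and 54.8. In both genes Tomatoneg replicate 3 exceeded CD24+Tomato+ replicate 2, so the groups overlapped. Log2 fold changes were 3.38 (SE 1.49) for Cpa1 and 3.11 (SE 1.61) for Cpb1, with limma adjusted P values of 0.19 and 0.26. The block gave 0.0586 and 0.102. In CD24negTomato+ libraries Cpa1 had 3.97, 1.23 and 49.0 normalized counts, against 0, 8.08 and 32.7. Cpb1 had 17.2, 6.27 and 38.0 against 0, 20.2 and 48.6. The groups overlapped in both genes, and the log2 fold changes of 0.29 (SE 1.76) and 0.77 (SE 1.56) were smaller than their errors. The sign of both turned without Tomatoneg replicate 1, to -1.09 and -0.91. Cpa1 was also the member whose Tomatoneg values changed most between the tables, by 1.22 and 1.25 times in replicates 2 and 3, where the median over genes was 1.02 and 1.05 times.

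Pnlip, the triglyceride lipase of pancreatic juice (chromosome 19, 58652498 to 58681788, plus strand), had 57.1, 23.2 and 453 normalized counts in CD24+Tomato+ and 0, 31.1 and 7.85 in Tomatoneg libraries. The groups overlapped through replicate 2, and the log2 fold change was 3.71 (SE 1.56, limma adjusted P = 0.172). In CD24negTomato+ libraries it had 10.4, 5.97 and 65.1 normalized counts against 0, 30.4 and 7.47, a log2 fold change of 1.44 (SE 1.54, limma adjusted P = 0.666).

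Clps encodes colipase, the cofactor that holds pancreatic lipase at the fat droplet in the presence of bile salts (chromosome 17, 28558149 to 28560766, minus strand). It had 5059, 14146 and 13900 normalized counts in CD24+Tomato+ libraries, and 585, 716 and 1093 in Tomatoneg libraries. Every CD24+Tomato+ library was far above every Tomatoneg library, and replicates 2 and 3 were alike. Clps rose from 798 ± 264 to 11035 ± 5177 (SD, n = 3), a log2 fold change of 3.69 (SE 0.44, limma adjusted P = 0.00536, and 0.000224 with the block). It passed the threshold in all 6 fits that left out 1 library, with adjusted P values of 0.00564 to 0.0384. In CD24negTomato+ libraries Clps had 2127, 1787 and 1133 normalized counts, against 539, 695 and 1035. The groups did not overlap on this scale, but replicate 3 of the 2 groups differed little. The log2 fold change of 1.16 (SE 0.34) did not pass the threshold in limma (adjusted P = 0.148, and 0.102 with the block). Scaled to a total of 1000000 per library (CPM), Clps had 75.3, 65.1 and 37.4 CPM in CD24negTomato+ and 21.2, 29.8 and 39.6 CPM in Tomatoneg libraries, and on that scale the groups overlapped. In the fit with the block but without the replicate 3 pair, Clps had a log2 fold change of 1.67 and a limma adjusted P of 0.00132.

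**Figure D1:**
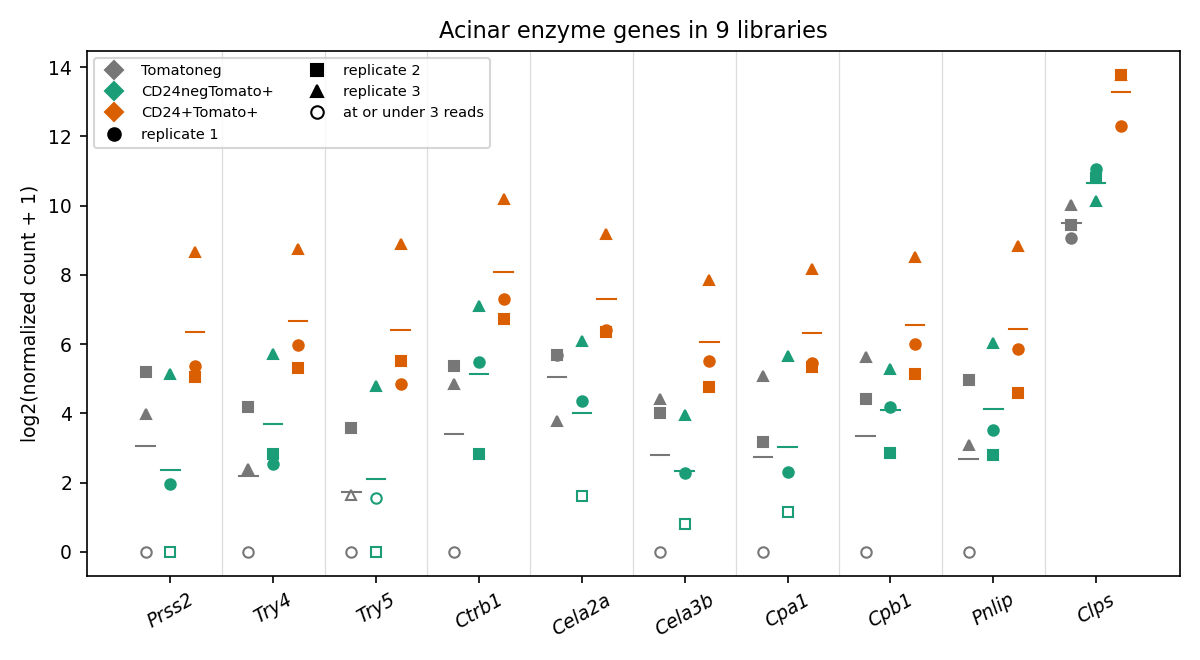
Levels of the 10 enzyme genes as log2(normalized count + 1), with 1 point per library, colours for the sorted groups, shapes for the replicates, open symbols for values at or under 3 reads and short lines for the mean of each group. Tomatoneg points are those of the CD24negTomato+ table. Clps lies above every other gene in all 9 libraries, and CD24+Tomato+ replicate 3 is the highest library for each of the other 9 genes.

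Of the 10 genes, 1 passed the threshold of an adjusted P under 0.05 in CD24+Tomato+ against Tomatoneg cells, where 8.02% of the 13874 genes tested were higher and 4.89% lower. With the replicate block 4 of the 10 were higher (Clps, Try4, Try5 and Ctrb1), where 10.8% of all genes were higher and 9.95% lower. Before adjustment limma had 5 of the 10 higher at a P under 0.05, where 16.3% of all genes were, and none lower, where 11.5% were. All 10 estimates were above 0, from 2.22 to 4.65 on the log2 scale, with a median of 3.54 against 0.16 over all genes tested. The groups did not overlap in 6 of the 10 (Try4, Try5, Ctrb1, Cela2a, Cela3b and Clps), where 21.6% of all genes tested were higher without overlap. Single libraries of both groups carried much of the size of these estimates. Without CD24+Tomato+ replicate 3 the log2 fold changes of the 9 genes other than Clps ran from 1.29 to 3.58, and Clps had 3.45. Without Tomatoneg replicate 1, where 8 of these 9 genes were at 0, the 9 ran from 1.39 (Cpb1) to 3.77 (Try5), and Clps had 3.49. In the fits without the block none of these 9 passed the threshold, with or without either library. With the block and without the replicate 3 pair, only Clps passed.

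In CD24negTomato+ against Tomatoneg cells 8 of the 10 genes reached the minimum mean of 10 and were tested, Try5 and Cela3b being below it. None passed the threshold, with or without the block, where 0.999% of the 13420 genes tested were higher and 0.32% lower, and 4.34% were higher and 2.96% lower with the block. At an unadjusted P under 0.05 limma had 1 of the 8, Clps, higher, a share near the 10.3% over all genes, and none lower, where 6.82% were. Estimates ran from -1.03 (Cela2a) to 1.73 (Ctrb1), and the median of these 8 was 0.96 against 0.08 over all genes tested. The confidence intervals of the 7 genes tested beside Clps all held 0 and reached from -5.08 to 5.65. At this spread neither a large rise nor a large fall could be detected. Without Tomatoneg replicate 1 the estimates of these 7 ran from -2.24 (Prss2) to 0.39 (Try4). With no filter, Try5 had 0.37 and Cela3b -0.46. Clps was the only member without overlap, where 14.7% of all genes were higher without overlap. The Tomatoneg libraries are shared by both comparisons, so the 2 sets of estimates are not independent. In bulk samples, fewer cells of a type and less RNA per cell cannot be told apart. Whether libraries with the same number share mice or a sort day is stated in neither the labels nor the methods.

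**Figure D2:**
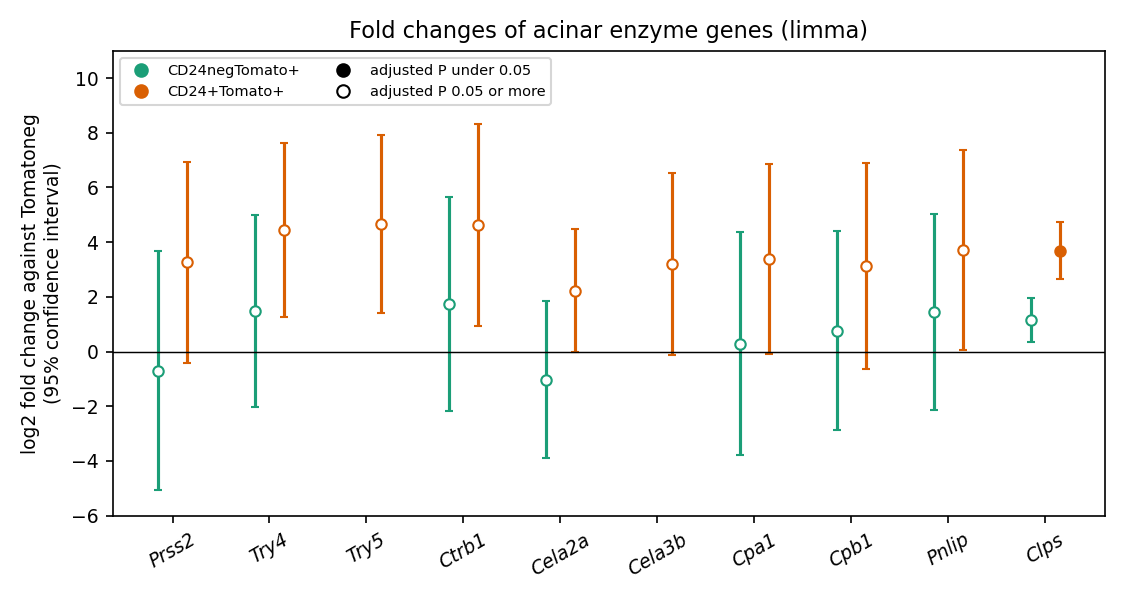
Log2 fold changes of the 10 enzyme genes against Tomatoneg cells from limma, with 95% confidence intervals and n = 3 libraries per group, filled where the adjusted P was under 0.05. The interval of Clps is the narrowest in both comparisons and only its CD24+Tomato+ point, at 3.69, is filled. Try5 and Cela3b have no CD24negTomato+ point because they were not tested there.

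The split between Clps and the rest, which was made after the values were seen, was clearest within the CD24+Tomato+ group. Replicate 3 stood 6.54 (Cela3b) to 13.3 times (Try5) above the mean of replicates 1 and 2 for the 9 genes, and 1.45 times for Clps. Over 13712 genes this ratio had a median of 0.978, and 90% of genes lay between 0.319 and 1.76. A ratio at or above that of Cela3b was found in 40 genes (0.292%). Cela3b is the lowest of the 9 enzyme genes, so all 9 are among the 40 by construction. Of 22 other acinar secretory genes with a ratio, whose median was 1.12 and lowest 0, 3 were as high, Cel (7.65), Amy2a5 (7.67) and Gp2 (11.1). These encode bile salt-stimulated lipase, a pancreatic amylase and the main membrane protein of the zymogen granule. Other amylase genes were not as high, with 1.48 for Amy2a1 and 1.04 for each of Amy2a2, Amy2a3 and Amy2a4. The last 3 had equal values, so the counting did not tell them apart. How far Amy2a5 shares sequence with them was not examined. Ins1 (8.06) was also among the 40, and 17 of the 40 were gene models with Gm names, some of them low or at 0 in other libraries. In the CD24negTomato+ group replicate 3 likewise led, by 3.24 to 9.44 times for the 5 of the 9 genes with enough counts in replicates 1 and 2, against 0.579 times for Clps. There 1.16% of genes were as high as the lowest of the 5, a cutoff again set by the 5 themselves. Replicate 3 held 61.8% to 93.3% of the CD24negTomato+ counts of the 9 genes and 22.4% of those of Clps.

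**Figure D3:**
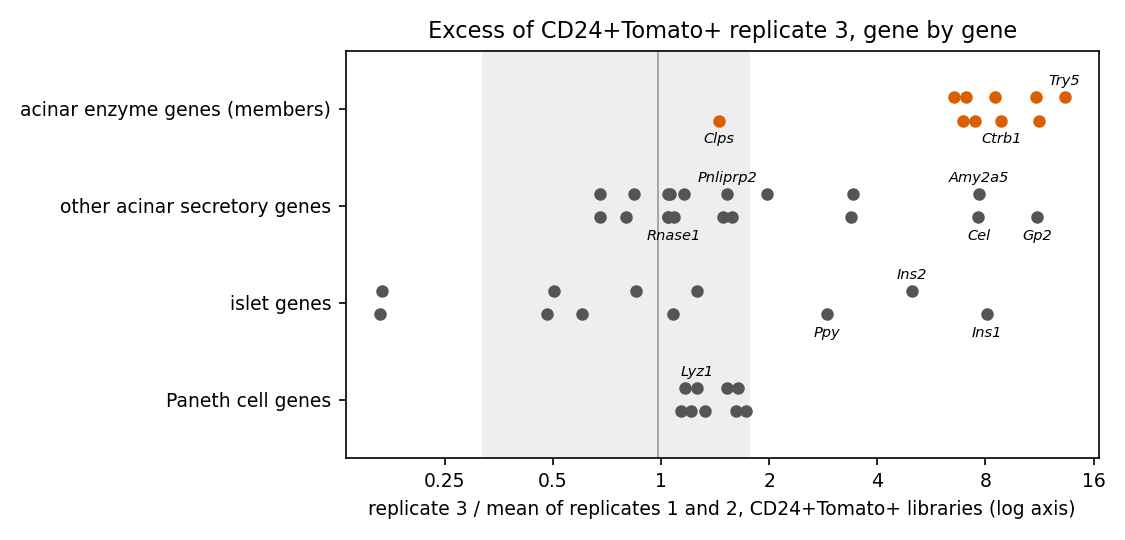
Ratio of CD24+Tomato+ replicate 3 to the mean of replicates 1 and 2 for single genes of 4 lists, on a log axis, where genes at 0 in replicate 3 cannot be drawn. The grey band holds the middle 90% of 13712 genes and the line their median of 0.978. The 9 enzyme genes lie at 6.54 to 13.3 with Cel, Amy2a5, Gp2 and Ins1, while Clps lies inside the band at 1.45 with the Paneth cell genes.

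Summed over the 9 genes, acinar transcripts reached 25.6, 15.4 and 152 CPM in CD24+Tomato+ replicates 1, 2 and 3. The sum was 3.84, 1.03 and 15.8 CPM in CD24negTomato+ and 1.98, 9.78 and 6.52 CPM in Tomatoneg libraries. These values are set side by side although the 2 tables were scaled separately. CD24+Tomato+ replicate 3 was the highest of the 9 libraries, and CD24negTomato+ replicate 3 was above CD24+Tomato+ replicate 2. The CD24negTomato+ and Tomatoneg ranges overlapped. The lowest CD24+Tomato+ library had 15.4 CPM, against at most 9.85 in the Tomatoneg libraries of the same table. In reads, the 9 genes together had an estimated 4507 in CD24+Tomato+ replicate 3, but 38.4 in CD24negTomato+ replicate 2 and 37.9 in Tomatoneg replicate 1. Of the 9 genes, 8 were at 0 in Tomatoneg replicate 1, which was also the shallowest library, and 5 were at or under the floor in CD24negTomato+ replicate 2.

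Some genes held a steady share of this sum in CD24+Tomato+ libraries and others did not. Ctrb1 took 27.2%, 24.7% and 26.4% of it in replicates 1, 2 and 3, and Try4 took 10.7%, 9.11% and 9.78%. The shares of other genes moved more, with 14.4%, 19.2% and 13.3% for Cela2a. Try5 took 4.78%, 10.4% and 10.9%, and Pnlip took 9.85%, 5.46% and 10.3%. In CD24negTomato+ replicate 3 the shares of Ctrb1 and Cela2a were 28.2% and 13.9%, near those of CD24+Tomato+ replicate 3. Tomatoneg replicates 2 and 3 had other leading genes, with Cela2a at 22.1% in replicate 2 and Cpb1 at 28.5% in replicate 3.

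Per kilobase of the longest annotated coding transcript, the 9 genes lay well below Clps in every library of the CD24+Tomato+ group. In CD24+Tomato+ replicate 3 Ctrb1 was the highest of the 9, with 1322 normalized counts per kilobase, followed by Try5 (597), Cela2a (545), Try4 (536), Prss2 (492), Pnlip (305), Cela3b (251), Cpa1 (181) and Cpb1 (135). In replicate 1 of the same group Ctrb1 was again first (179) and Cpb1 last (23.3), with Cela2a (77.9) and Try4 (77.6) nearly equal. The levels between these ends changed order between libraries and are not resolved. Clps had 22749 in CD24+Tomato+ replicate 3 and 8280 in replicate 1, and its excess over Ctrb1 was larger in replicates 1 and 2 than in replicate 3. Relative to the sum of the 9 genes, in normalized counts, Clps was 8.73, 33.3 and 3.17 times as high in CD24+Tomato+ replicates 1, 2 and 3. In CD24negTomato+ libraries it was 19.6, 63.0 and 2.36 times as high.

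Across the 6 libraries of a table, each of the 9 genes other than Cela2a had a Pearson's r of 0.853 to 0.941 (CD24negTomato+ table) or 0.932 to 0.992 (CD24+Tomato+ table) with the mean log2 level of the rest of the 9. Cela2a had 0.31 and 0.66, and Clps had 0.10 and 0.80. These are descriptions over 6 libraries that share a depth and a group difference. The genes whose log2 levels were most like the mean of the members tested were Cel (r = 0.995), Mrps36, Mad2l2, Niban3 and BC024978 in the CD24negTomato+ table, the last with r = 0.956. In the CD24+Tomato+ table they were Pomk (0.993), 2210010C04Rik, Blm, Cel and Reg2, the last with 0.981. Cel, which was among the 5 in both tables, had 83.1, 27.6 and 423 normalized counts in CD24+Tomato+ and 0, 23.8 and 18.9 in Tomatoneg libraries.

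Other acinar secretory genes were read from a list of 30, of which 29 were in the tables. In CD24+Tomato+ cells 19 were tested, with a median log2 fold change of 1.94. Of these, 5 were higher (Pnliprp2, Pla2g1b, Rnase1, Klk1 and Zg16) and 3 lower (Spink1, Reg1 and Dnase1), where 8.02% and 4.89% of all genes were. With the block 8 were higher and 3 lower, with Amy2a5 and Pnliprp1 among those added, where 10.8% and 9.95% of all genes were. In CD24negTomato+ cells 17 were tested, with a median of 0.18. Klk1 and Zg16 were the 2 higher, where 0.999% of all genes were higher and 0.32% lower. The block added 2 lower, Pnliprp2 and Rnase1, where 4.34% of all genes were higher and 2.96% lower. Zg16 is also a goblet cell gene, and several of these genes are also expressed in the intestine, so their counts do not stand for acinar cells alone. Prss1, Cela3a, Serpini2 and Tmed11 were at 0 in all 9 libraries.

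Some of these genes followed Clps more than the proteases. Pnliprp2, a lipase related to Pnlip, had 3416, 9471 and 9862 normalized counts in CD24+Tomato+ and 663, 634 and 942 in Tomatoneg libraries (log2 fold change 3.22, SE 0.43, limma adjusted P = 0.00676). Rnase1, a secreted ribonuclease, had 3892, 5462 and 5077 against 935, 672 and 1007 (log2 fold change 2.47, SE 0.24, adjusted P = 0.00266). Pla2g1b, the pancreatic phospholipase A2, had 63.0, 47.9 and 64.4 against 0, 4.41 and 6.15 (log2 fold change 4.12, SE 0.99, adjusted P = 0.0365). In none of the 3 did CD24+Tomato+ replicate 3 stand apart, whereas Amy2a5 had 289, 43.4 and 1274 normalized counts in these libraries. The amylase genes Amy2a1 to Amy2a4 differed from Amy2a5, with replicate 3 at 1.04 to 1.48 times the mean of replicates 1 and 2. Klk1, a tissue kallikrein, had log2 fold changes of 3.01 in CD24+Tomato+ and 2.97 in CD24negTomato+ cells. Zg16, a lectin-like protein of secretory granules, had 1.94 and 4.43 (limma adjusted P = 0.0308 and 0.00685). In CD24+Tomato+ cells Spink1, a trypsin inhibitor, fell by 1.94, Reg1 fell by 1.97 and Dnase1, a secreted nuclease, fell by 3.25 on the log2 scale.

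Of the 6 acinar regulators, 4 were tested, and 1, Bhlha15, was higher past the threshold in CD24+Tomato+ cells, where 8.02% of all genes were. Bhlha15 encodes MIST1, a factor of secretory cells with extensive endoplasmic reticulum, acinar and others. It had 1695, 3616 and 2776 normalized counts in CD24+Tomato+ and 248, 589 and 622 in Tomatoneg libraries, without overlap (log2 fold change 2.51, SE 0.44, limma adjusted P = 0.0138). In CD24negTomato+ libraries it had 150, 486 and 373 normalized counts against 230, 576 and 593 (log2 fold change -0.51, limma adjusted P = 0.673). Gata4, Gata6 and Nr5a2, which are also expressed in intestinal epithelium, did not pass, with log2 fold changes of -0.91, -0.34 and -0.81 in CD24+Tomato+ cells. With the block Gata4 was lower there (limma adjusted P = 0.00807), where 9.95% of all genes were lower.

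Paneth cell genes were set beside Clps because both were high in CD24+Tomato+ libraries. Over the 6 libraries of that table the log2 level of Clps had r = 0.97 with that of Lyz1, and the other 9 enzyme genes had 0.63 to 0.90. Over the 6 libraries of the other table r was -0.62 for Clps and 0.03 to 0.51 for the other 9. These libraries share depth and a group difference, so the values are descriptions. Lyz1, the lysozyme of Paneth cells, had 172202, 644306 and 515378 normalized counts in CD24+Tomato+ and 13501, 50616 and 48830 in Tomatoneg libraries. The 9 Paneth genes of the list were all above 0 in these libraries, and summed to 516799 to 2326430 normalized counts in CD24+Tomato+ against 44876 to 173589 in Tomatoneg libraries. Clps per Lyz1 was 0.0294, 0.0220 and 0.0270 in CD24+Tomato+ libraries, and 0.0433, 0.0142 and 0.0224 in Tomatoneg libraries of the same table. It was 0.631, 0.171 and 0.109 in CD24negTomato+ libraries, where Lyz1 had 3373, 10430 and 10432 normalized counts. Paneth genes were not the only ones high in CD24+Tomato+ libraries. All 9 Paneth, 8 goblet and 11 enteroendocrine genes of the lists passed the limma threshold as higher there, where 8.02% of all genes did. In CD24negTomato+ cells 0 Paneth, 8 goblet and 6 enteroendocrine genes were higher, where 0.999% of all genes were. The part of any of these cell types in the Clps level was not tested.

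Insulin transcripts were set beside the enzymes because islets lie within the same organ. Ins1 and Ins2 together had 11.8, 30.9 and 275 CPM in CD24negTomato+, 0.604, 6.69 and 20.0 CPM in CD24+Tomato+ and 0, 5.74 and 3.64 CPM in Tomatoneg libraries. Replicate 3 was the highest library of both Tomato+ groups for insulin as for the 9 enzyme genes. The size did not go together across libraries. The 9 enzyme genes were 0.327, 0.0335 and 0.0575 times Ins1 and Ins2 in CD24negTomato+ replicates 1, 2 and 3, and 42.5, 2.31 and 7.62 times in CD24+Tomato+ replicates. In Tomatoneg replicates 2 and 3 this ratio was 1.70 and 1.79, and in replicate 1 no insulin transcript was listed. Carried-over pancreas was not tested as a source of either set of transcripts.

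**Figure D4:**
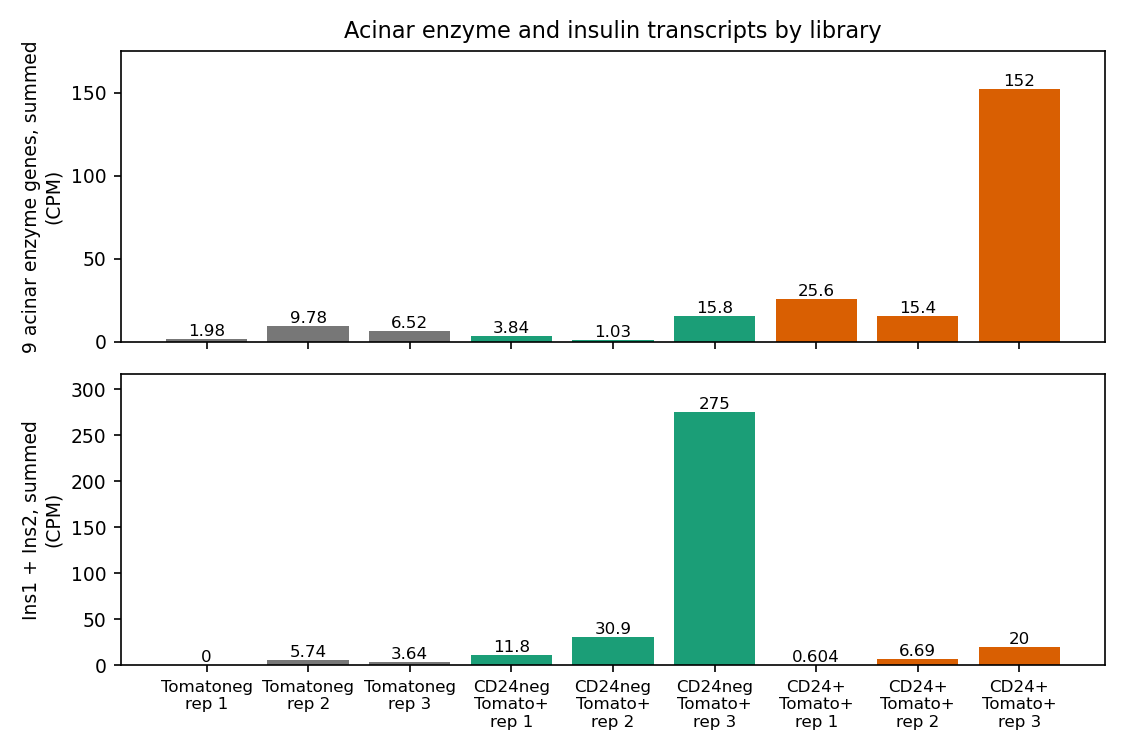
Summed levels of the 9 enzyme genes other than Clps (top) and of Ins1 and Ins2 (bottom) in CPM (normalized counts scaled to the library total), 1 bar per library, with Tomatoneg libraries from the CD24negTomato+ table. CD24+Tomato+ replicate 3 is the highest bar for the enzymes (152) and CD24negTomato+ replicate 3 for insulin (275).

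Replicate 3 was not the highest library for every other islet gene. Iapp, the β cell peptide amylin, had 1517, 1128 and 636 normalized counts in CD24+Tomato+ and 53.3, 108 and 657 in CD24negTomato+ replicates 1, 2 and 3, so that replicate 3 was the lowest of the first group and the highest of the second. It passed the threshold in CD24+Tomato+ cells (log2 fold change 4.33, SE 0.67, limma adjusted P = 0.00994). Ppy, the hormone pancreatic polypeptide, reached 145, 71.5 and 314 normalized counts in CD24+Tomato+ and 176, 435 and 1827 in CD24negTomato+ replicates, with replicate 3 the highest of both groups, and all Tomatoneg libraries listed it at 0. Of the 13 islet genes, 9 were tested in CD24+Tomato+ cells, and 5 were higher and 0 lower, where 8.02% and 4.89% of all genes were. The block gave 5 higher and 1 lower. In CD24negTomato+ cells 11 were tested, and 2 were higher and 0 lower (0.999% and 0.32% of all genes), or 5 higher and 1 lower with the block (4.34% and 2.96%). Several of the islet genes are hormone genes that enteroendocrine cells of the gut also express.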

How the data were processed

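Bulk mRNA of 9 libraries was sequenced by the authors, who estimated gene counts with kallisto 0.44.0 on GRCm38 (bcl2fastq 2.19 for base calls, sleuth and DESeq2 also named in the submitters' processing notes). The deposited signal is these counts normalized by the authors with DESeq2 within each of 2 tables of 6 libraries, so levels were tested only within a table. The most common low value was taken as 1 read, but only 46.4% to 67.0% of low values were whole multiples of it (tolerance 0.05), so depths are estimates and no count test was run. The test was limma 3.58.1 (lmFit, eBayes with trend, R 4.3.3) on log2(normalized count + 1), for genes averaging at least 10 in the 6 libraries. Fold changes are on that scale, which understates changes of low genes. P values were two-sided, adjusted by the Benjamini-Hochberg method over all genes tested, with a threshold of 0.05, and measure the spread between these 3 libraries per group. The scripts were tested on simulated data.

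Same-numbered libraries deviated together from their group means (r = 0.302, 0.291 and 0.342 for replicates 1, 2 and 3 in the CD24negTomato+ table and 0.283, 0.180 and 0.375 in the CD24+Tomato+ table). The pairing comes from the replicate numbers of the labels, and fits with the number as a block are given where they change a call. Alternatives were pseudocounts of 0.1 and 10, no filter, a minimum mean of 1, equal library totals, quantile normalization, eBayes without trend, the block and single libraries left out. The block without each pair was added after the values were seen. The enzyme genes and the lists of other genes were chosen with earlier results of these data known. Beyond the 10 enzyme genes, those named are acinar secretory genes and regulators past the threshold or among the 4 highest, Ins1, Ins2, Iapp and Ppy, the sort checks, and the 5 genes per table most like the members. Any other gene was named after its values were seen. Positions and 31-base words are from GENCODE M21 (GRCm38) and promoters from RefSeq (GRCm38.p6). Figures were drawn with matplotlib 3.10.9 in Python 3.11.15. The values of 1 gene of the list of other acinar secretory genes are not reported here, and it is not drawn.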

Additional observations from a re-analysis of the deposited data

Results flagged for a closer look

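In 3 of the 29 other acinar secretory genes, the 2 Tomato+ populations lay on opposite sides of the Tomatoneg libraries. Every library of one population was above all Tomatoneg libraries, and every library of the other was below them. The share of all genes with this pattern was not counted, so the 3 cannot be set against it. Higher values without overlap were common, in 14.7% of all genes tested in CD24negTomato+ and 21.6% in CD24+Tomato+ cells. Pnliprp2 had log2 fold changes of -1.25 in CD24negTomato+ and 3.22 in CD24+Tomato+ cells. Rnase1 had -1.60 and 2.47, and Spink1 had 0.57 and -1.94. The limma adjusted P values in CD24negTomato+ cells were 0.0841, 0.051 and 0.229 without the replicate block, and 0.0456, 0.0259 and 0.0875 with it. In CD24+Tomato+ cells all 3 passed the threshold (0.00676, 0.00266 and 0.00355). The difference between the populations itself was not tested, since the tables were scaled separately and share the Tomatoneg libraries. None of the 10 enzyme genes had this pattern.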

How the results depend on the processing

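The 10 enzyme genes kept their direction in CD24+Tomato+ cells under all alternatives run, and Clps was past the threshold there in each of them. In CD24negTomato+ cells none of the tested members passed without the replicate block, and the signs of 5 were not stable. Prss2 turned from -0.70 to 0.48 without CD24negTomato+ replicate 2, to 0.37 without Tomatoneg replicate 2 and to 1.55 with the block and without the replicate 2 pair. Cela2a turned from -1.03 to 0.17 without CD24negTomato+ replicate 2 and to 0.49 in that blocked fit. Cpa1 and Cpb1 turned to -0.96 and -0.50 with quantile normalization, to -1.09 and -0.91 without Tomatoneg replicate 1, and to -0.73 and -0.94 with the block and without the replicate 1 pair, where Ctrb1 had -0.15. Without single libraries Prss2 ranged from -2.24 to 0.48, Cela2a from -2.06 to 0.17, Cpa1 from -1.09 to 1.45 and Cpb1 from -0.91 to 1.91. The cause was not tested. Members past the threshold in CD24+Tomato+ cells numbered 1, but 4 with the replicate block, and 1 to 7 with the block and without 1 pair (1 without pair 3, 6 without pair 1, 7 without pair 2). In CD24negTomato+ cells this number was 0, and 0 to 1 with the block and without 1 pair, the 1 being Clps.

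Over all genes, 177 passed in CD24negTomato+ cells, against 112 and 415 with pseudocounts of 0.1 and 10, 494 with quantile normalization, 291 without the trend and 979 with the replicate block. Leaving out single libraries gave 18 (without CD24negTomato+ replicate 2) to 1059 (without Tomatoneg replicate 1), and the block without 1 pair gave 323 (pair 2), 884 (pair 3) and 2838 (pair 1). In CD24+Tomato+ cells 1791 passed, 2885 with the block, 168 (without CD24+Tomato+ replicate 2) to 2478 without 1 library, and 2218 to 3651 with the block and without 1 pair. Higher and lower calls there were 1113 and 678, but 991 and 1036 with quantile normalization, which shifted the median gene by -0.21 on the log2 scale. In CD24negTomato+ cells they were 134 and 43, but 98 and 60 with equal totals, a shift of -0.20, and 304 and 190 with quantiles.

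Low counts limit what can be read from several members. In CD24negTomato+ replicate 2, 5 of the 9 enzyme genes other than Clps had at most 3 estimated reads, and in Tomatoneg replicate 1, 8 of them were at 0. The estimated depth of these libraries was 3.71e+07 and 1.92e+07 reads, the highest and the lowest of their table. A value of 0 there allows up to 3 reads, or 3.99 normalized counts in the CD24negTomato+ table and 4.29 in the CD24+Tomato+ table. With 3 libraries per group, the standard errors of these 9 genes were 0.96 to 1.88 on the log2 scale, against 0.34 and 0.44 for Clps. In CD24+Tomato+ cells those of the 9 were 0.96 to 1.61. They were 0.89 to 1.81 without CD24+Tomato+ replicate 3, and 0.94 to 1.29 without Tomatoneg replicate 1.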

Other observations

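Outside the acinar and islet lists and the Gm gene models, 10 genes were at least as raised in CD24+Tomato+ replicate 3 as Cela3b. The lists do not hold every acinar gene, so a place outside them does not make a gene non-acinar. The 10 genes were Pet117, Cfhr2, Ighd, Ugt1a6a, Rhoj, Eda, Sap18, 2210010C04Rik, Duox1 and Ighv1-53. They were named after their values were seen. 2210010C04Rik had 45.3, 52.6 and 350 normalized counts in the CD24+Tomato+ and 0, 18.9 and 23.6 in the Tomatoneg libraries. Sap18, a subunit of a transcriptional corepressor complex, was far more abundant, with 244, 291 and 1910 normalized counts in CD24+Tomato+ libraries against 403, 2367 and 1939 in Tomatoneg libraries, so its replicate 3 level was above Tomatoneg replicate 1 and below Tomatoneg replicates 2 and 3. Ighd and Ighv1-53, immunoglobulin genes of B cells, had 25.3 and 17.1 normalized counts in CD24+Tomato+ replicate 3, below their 79.9 and 57.5 in Tomatoneg replicate 3.

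Reg2, one of the genes most like the enzymes, had 37.2, 25.4 and 178 normalized counts in CD24+Tomato+ and 0, 8.87 and 16.6 in Tomatoneg libraries. Of the stromal, endothelial and immune genes, 9 were tested in CD24+Tomato+ cells, with a median log2 fold change of -0.93. Vim, which encodes vimentin, was higher (3.05) and Cd3e, a T cell receptor subunit, was lower (-4.03), with limma adjusted P values of 0.00172 and 0.0196. Among all genes tested there, 8.02% were higher and 4.89% lower. In CD24negTomato+ cells 8 were tested and none passed in limma, with a median of -1.15. At an unadjusted P under 0.05, 1 was higher and 1 lower, where 10.3% and 6.82% of all genes were. The block had Vim higher (limma adjusted P = 0.0485), where 4.34% of all genes were.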
